A study of Mus musculus with 2 samples.

Results

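Hair matrix progenitors are the dividing epithelial cells of the hair bulb, and here they are 329 keratinocytes from the back skin epidermis of mice at postnatal day 2 (P2). They were chosen by their own counts of unique molecular identifiers (UMIs, counted RNA molecules). A member had at least 3 UMIs of Cux1 per 10000, a UMI of at least 2 of the 6 genes Shh, Myb, Msx1, Msx2, Cldn10 and Edar, under 5 UMIs per 10000 of the inner root sheath keratins Krt25, Krt27, Krt28, Krt71 and Krt73 together, and under 5 of the hair shaft keratin Krt35. It also had fewer UMIs of Col1a1 and Col1a2 than of Krt5 and Krt14. The members were 4.01% of the 8206 cells kept in all, and those were taken from 10622 barcodes by asking for between 1000 and 8000 detected genes and a mitochondrial share of UMIs below 15%.

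The study asked what the transcription factor Gli2 does in the epidermis while hair follicles form, and measured single cells of epidermal whole mounts in droplets. It made 1 library of control mice, labelled as wild type, and 1 of Gli2EKO mice, in which K14Cre, a transgene active in keratinocytes that make keratin 14, deletes floxed Gli2. The control littermates of this cross carried the floxed alleles without Cre; the Gli2 lines were kept on a C57BL/6N background, and the controls were taken without regard to sex. How many animals went into a library, and of which sex, was not stated in the sources used here. RNA was captured by its polyadenylated end with a 10x 3′ assay, and the authors' counts came without normalization.

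The control library held 71021773 UMIs in 6326 barcodes and the Gli2EKO library 48866478 in 4296. They shared 0 barcodes. The control library gave 250 members with 4108989 UMIs, a median of 15659 per cell and a range of 2273 to 53922. The Gli2EKO library gave 79 members with 1448468 UMIs, a median of 17904 and a range of 2585 to 45633. With 1 library per genotype there is no replicate, so genotype and library cannot be told apart, no test was made, and the 95% intervals in parentheses cover counting error only. Levels are given as CPM, for which a population's UMIs of each gene were added up, and scaled to its UMIs of all genes in the usual way.

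As background, the hair matrix lies around the dermal papilla at the base of the growing follicle, and its cells divide before they turn into the inner root sheath or the hair shaft. A subset of matrix cells secretes Sonic hedgehog (Shh), which is received through Ptch1 and Smo and read out by the Gli transcription factors. Wnt, Eda and BMP signals are also known to act in this tissue, through Lef1, the receptor Edar and the homeobox genes Msx1 and Msx2.

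The targeted gene Gli2 (chr1:118761858-118982598 in GRCm39, minus strand) stood at 124 CPM in control members and 76.6 CPM in Gli2EKO members. The log2 ratio of Gli2EKO over control was −0.70 (−1.01 to −0.40). In inner root sheath keratin cells it was −0.91, and in outer root sheath type cells, at 92.8 and 99.2 CPM, it was 0.0962 (−0.00183 to 0.194). Counts at the 3′ end need not cover the deleted exons, so these levels check nothing about the genotype labels. Both libraries held RNA of Y-linked genes, with Eif2s3y at 100 CPM in control members and 84.2 CPM in Gli2EKO members, while Xist, the RNA of the inactive X chromosome, had 1 and 0 UMIs. Of the 4 Y-linked genes compared in the fixed list of sex genes, Eif2s3y, Uty, Ddx3y and Kdm5d, 0 passed 1.5-fold.

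The limits on Cux1, on the markers and on Krt35 left a smaller share of the Gli2EKO library, and those on collagens and inner root sheath keratins a smaller share of the control library. Of 3478 control keratinocytes, 1086 passed the limit on Cux1, 575 also had 2 of the 6 markers, 282 were under the limit on inner root sheath keratins and 250 under that on Krt35. Of 2485 Gli2EKO keratinocytes the same steps left 405, 168, 96 and 79. Members with 2, 3, 4, 5 and 6 of the markers numbered 94, 92, 39, 19 and 6 in the control library. In the Gli2EKO library they numbered 30, 24, 17, 6 and 2.

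Cells on either side of the limits on Cux1, markers and inner root sheath keratins were described by Lef1, a transcription factor of Wnt signalling that the rule did not use. In the control library the 18 members within 1 unit inside the Cux1 limit had Lef1 at 815 CPM, and the 19 cells just outside it 563 CPM. In the Gli2EKO library these were 8 and 11 cells, at 448 and 296 CPM. Members with 2 markers had Lef1 at 425 CPM in the control library and 582 CPM in the Gli2EKO library, and cells with 1 marker that met the other limits at 278 and 182 CPM (139 and 54 cells). At the limit on inner root sheath keratins the Lef1 level did not fall outside it. The 34 control cells just inside had 513 CPM and the 46 just outside 531, and the 5 and 9 Gli2EKO cells had 451 and 790.

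The genes of the rule are a description of the members and not a result. Shh (chr5:28661813-28672254, minus strand), the Hedgehog ligand, stood at 36.0 CPM (30.4 to 42.3) in control members and 130 CPM (112 to 150) in Gli2EKO members. Msx1 (chr5:37977829-37981928, minus strand), a homeobox factor, stood at 131 CPM (121 to 143) and 40.7 CPM (31.0 to 52.5). Cux1 (chr5:136276755-136596408, minus strand), a homeodomain factor of follicle progenitors, stood at 1385 and 1047 CPM. In the other keratinocytes Cux1 was at 344 CPM in the control library and 155 CPM in the Gli2EKO library. The remaining markers, as control and Gli2EKO members, were Myb, a factor of progenitor cells, at 67.9 and 58.0 CPM, Msx2 at 92.0 and 77.3, the tight junction gene Cldn10 at 101 and 54.5, and the Eda receptor gene Edar at 91.8 and 126.

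To compare shares of cells with a UMI, each cell was thinned to 5000 UMIs at random, which left out 18 control and 7 Gli2EKO members. Immune cells of the same libraries, with median depths of 10350 and 11518 UMIs, served as a comparison for free RNA. Their rule limited Krt5 and Krt14 but not collagens. Col3a1 stood at 562 CPM in control and 82.0 CPM in Gli2EKO immune cells, against 40.2 and 68.3 CPM in members. For genes of the dermis, immune cells therefore need not show free RNA alone. A Msx1 UMI was then found in 36.6% of control and 16.7% of Gli2EKO members, against 2.38% and 0% of immune cells. An Edar UMI was found in 34.9% and 30.6% of members, against 2.38% and 0%. Cux1 was also frequent outside the members, since 73.8% of control and 69.6% of Gli2EKO immune cells held it, at 362 and 261 CPM, against 99.1% and 93.1% of members. Msx1, Edar and Cux1 are genes of the rule, so their higher shares in members rest on the selection. The 0 immune cells with Msx1 or Edar, of 56 in the Gli2EKO library, allow a share of up to 6.38%.

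Lef1 and Hoxc13, which the rule did not use, separated the members from outer root sheath type cells in both libraries. Lef1 was found in 71.1% of control and 56.9% of Gli2EKO members after thinning, against 8.47% and 9.16% of outer root sheath type cells and 7.14% and 1.79% of immune cells. Hoxc13, a homeobox factor of the hair matrix and shaft, was found in 34.5% and 37.5% of members, against 15.3% and 16.3% of outer root sheath type cells. Krt15, a keratin of the outer root sheath and its stem cells, went the other way, with 39.7% and 43.1% of members against 86.5% and 84.6%. Of the whole list of 34 matrix transcription factors 31 were compared, past 2-fold in both libraries. Against outer root sheath type cells 8 were higher and 5 lower in members, beside 2.09% higher and 7.26% lower among all genes. Against inner root sheath keratin cells 1 was higher and 4 lower, beside 0.998% and 0.962% among all genes. Cells with inner root sheath keratins above the limit also held the markers, Msx1 in 36.7% and 15.3% of them and Lef1 in 61.5% and 50.7%. The rule parts the members from those cells by a limit on keratins, and no clustering was made.

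**Figure D1:**
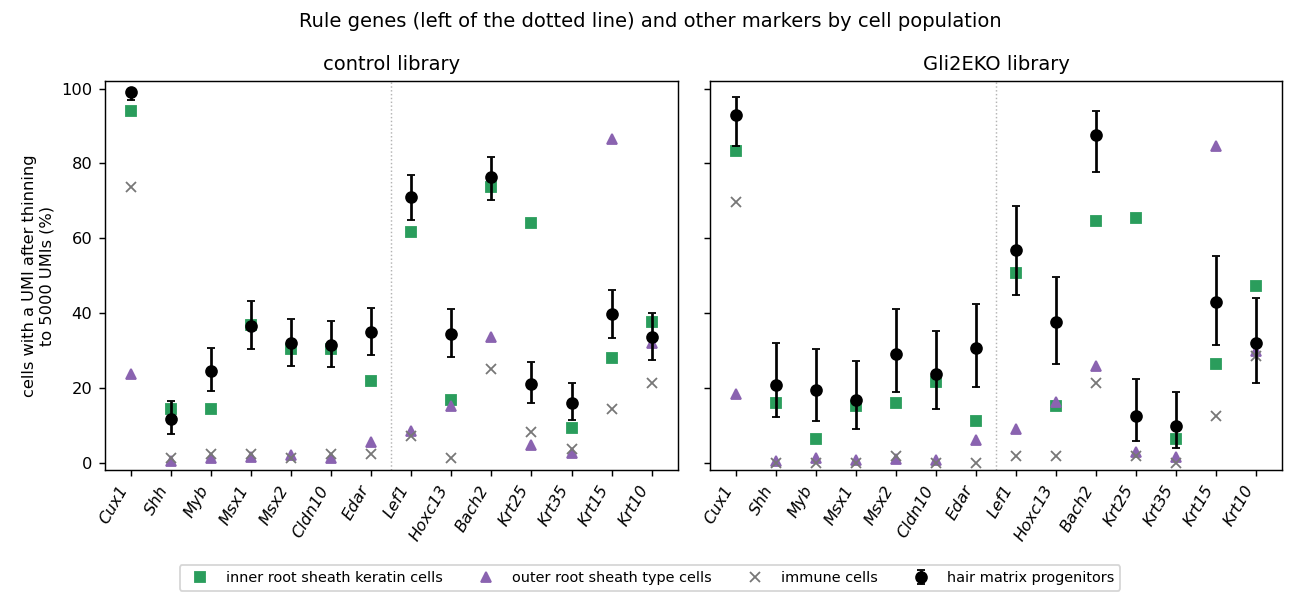
Percent of cells with a UMI of each gene after thinning to 5000 UMIs per cell, in the control library (left) and the Gli2EKO library (right), for hair matrix progenitors (black, with 95% Clopper-Pearson intervals) and 3 other populations. The 6 markers are more frequent in members and inner root sheath keratin cells than in outer root sheath type and immune cells, whereas Cux1 is also found in 73.8% and 69.6% of immune cells. These genes chose the members, so their shares in members rest on the selection.

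Matrix progenitors took a smaller share of the Gli2EKO library. They were 5.16% (4.55 to 5.82) of the control cells and 2.35% (1.86 to 2.92) of the Gli2EKO cells, a ratio of 0.455 (0.349 to 0.589). Among keratinocytes they were 7.19% (6.35 to 8.10) and 3.18% (2.52 to 3.95), a ratio of 0.442 (0.339 to 0.572). These shares rest on the genes of the rule, and Cux1 and Msx1 themselves were lower in Gli2EKO cells, so fewer matrix cells and matrix cells with less of these RNAs cannot be told apart. With inner root sheath keratins held under 1 UMI per 10000 the shares were 1.47% and 0.892% and their ratio 0.609.

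Several genes that the rule did not use stood high in the members in both libraries. Ranked by the smaller of the control and Gli2EKO ratios of members over other keratinocytes, and named after the values were seen, the leading 20 genes began with Mme, 9530036O11Rik, Krtap8-1, Wnt5a and Bach2. Mme, which encodes the cell surface peptidase neprilysin, was higher by a log2 ratio of 2.35 in the control and 3.61 in the Gli2EKO library. Bach2 (chr4:32238714-32586108, plus strand), a transcription repressor, had 979 CPM in control members against 222 in the other keratinocytes, and 931 against 108 in the Gli2EKO library. Inner root sheath keratin cells were closer to the members, with Bach2 at 692 and 421 CPM, Lef1 at 367 and 235 CPM against 523 and 394 CPM in members, and 9530036O11Rik at 27.5 and 40.9 CPM against 30.4 and 37.3 CPM. The transcription factors Sox5, Dlx2, Mycl, Dlx3 and Lef1, the signalling genes Wnt5a and Nrp2, and both metallothioneins were also among the 20. Because cells were chosen by correlated genes, these ratios describe the members and were not tested.

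Against inner root sheath keratin cells (449 control and 161 Gli2EKO cells above the keratin limit), few genes differed. Of 8318 genes with at least 50 UMIs in each library, 83 (0.998%) were higher and 80 (0.962%) lower in members past 2-fold in both libraries. Of 8 Hedgehog reception genes 2 were higher, Gli2 by a log2 ratio of 1.07 in the control and 1.28 in the Gli2EKO library and Gli3 by 1.14 and 1.37, as was Ptch1, a target and receptor, by 1.18 and 1.84. Also higher were Vdr, the vitamin D receptor, by 1.16 and 1.08, and Kitl, the ligand that melanocytes respond to, by 1.52 and 1.499. Of 9 inner root sheath genes compared, 6 were lower in members, a list that includes the keratins of the rule.

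Against outer root sheath type cells (1517 control and 1045 Gli2EKO keratinocytes with at least 2 of Sox9, Lhx2, Lgr5, Nfatc1 and Barx2), the distance was larger. Of 11700 genes, 245 (2.09%) were higher and 850 (7.26%) lower in members past 2-fold in both libraries. Of 23 Wnt pathway genes 10 were higher and 1 lower, with Lef1 at log2 ratios of 3.998 and 3.22 and Wnt5a at 3.62 and 2.62. Of 17 BMP pathway genes 9 were higher and 1 lower. The higher ones include Msx1 and Msx2, which chose the members, so their direction rests on the selection. Id3, an inhibitor of helix-loop-helix factors, was also higher, at 1.83 and 1.45. Of 12 outer root sheath and stem cell markers 9 were lower, with Krt15 at −1.64 and −2.23 and Sox9 at −2.94 and −3.56. Some of these markers chose the outer root sheath type cells.

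The metallothioneins Mt1 (chr8:94905710-94906955, plus strand) and Mt2 (chr8:94898819-94900207, plus strand), small proteins that bind zinc and copper, were among these leading 20 genes. Mt1 stood at 3065 CPM in control members and 6155 CPM in Gli2EKO members, a log2 ratio of 1.01 (0.97 to 1.05). Mt2 stood at 2579 and 4897 CPM, a log2 ratio of 0.93 (0.88 to 0.97). The median cell moved with the sum, from 18.0 to 33.8 UMIs of Mt1 per 10000 and from 16.5 to 31.4 of Mt2. In outer root sheath type cells Mt1 also stood higher in the Gli2EKO library, at 661 against 287 CPM, a log2 ratio of 1.204, and in immune cells at 526 against 364 CPM. In inner root sheath keratin cells it was 3104 CPM in the control and 2926 CPM in the Gli2EKO library. The difference is therefore also found outside the members, and these differences between populations were not tested.

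Both genes are known targets of a zinc-sensing transcription factor that binds metal response elements, so their promoters are printed, from RefSeq on GRCm38.p6, with 250 bases before and 50 after the start of the gene on the plus strand. Capitals mark matches to the core letters of that element, TGCACNC or TGCGCNC, searched on both strands, and the motifs cannot match at the same place. The Mt1 window (chr8:94178839-94179138) holds 3 matches and the Mt2 window (chr8:94172368-94172667) holds 4. Of all 32851 promoter windows of this length, 25.7% hold either motif, 1.97% at least 3 matches and 0.517% at least 4. A match is a description of letters and no evidence of binding.
Mt1: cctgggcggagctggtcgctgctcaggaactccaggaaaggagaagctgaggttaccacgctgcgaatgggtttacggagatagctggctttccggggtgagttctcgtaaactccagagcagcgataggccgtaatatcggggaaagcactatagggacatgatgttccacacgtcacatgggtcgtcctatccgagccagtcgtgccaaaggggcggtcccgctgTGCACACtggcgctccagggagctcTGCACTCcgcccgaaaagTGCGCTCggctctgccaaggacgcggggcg
Mt2: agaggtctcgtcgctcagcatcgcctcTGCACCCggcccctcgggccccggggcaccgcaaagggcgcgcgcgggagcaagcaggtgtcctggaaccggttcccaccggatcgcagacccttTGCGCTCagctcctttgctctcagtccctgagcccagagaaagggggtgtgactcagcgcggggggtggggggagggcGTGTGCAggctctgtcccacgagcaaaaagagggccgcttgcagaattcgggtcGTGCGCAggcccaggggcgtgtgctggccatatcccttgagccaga

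Between genotypes, lower levels in Gli2EKO members outnumbered higher ones. Among the 7507 genes that reached 100 UMIs when the members of the libraries were added up, 199 (2.65%) were higher and 1002 (13.3%) lower past 1.5-fold. Control members hold most of the UMIs, so a gene high in the control library reaches the minimum more easily. The median log2 ratio of the 7507 genes was −0.12, and ratios are to be read against it. Scaled so that this median was 0, 411 genes were higher and 633 lower, so the higher genes were 39.4% of those called in place of 16.6%. The most abundant gene, Rn18s-rs5, which encodes ribosomal RNA, had 23346 and 10988 CPM, and the mitochondrial ribosomal RNA mt-Rnr2 had 16051 and 11650; they were chosen after their values were seen, and their part in the ratios of other genes was not tested.

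The genes at the ends of the range, among those with at least 10 UMIs in each library, were named after their values were seen. This leaves Flg, an epidermal barrier gene with 620 UMIs in control and 3 in Gli2EKO members, 94.0% of the former in 1 cell, out of the ranking. Some of the ranked ratios rested on 1 cell. Fabp4, a fatty acid binding protein of fat and endothelial cells, had 8.27 CPM in control and 268 CPM in Gli2EKO members, with 97.7% of the latter UMIs in 1 cell, and the log2 ratio went from 5.02 to −0.28 without the top cell of each library. Krt10 and Krt1, keratins of the differentiating epidermis, were lower in Gli2EKO members by log2 ratios of −3.70 and −3.21, with 69.0% and 77.1% of the control UMIs in 1 cell. At least 25% of the UMIs of the higher library came from 1 cell in 24 of the higher and 39 of the lower genes. Without the top cell of each library for each gene, an alternative chosen after seeing the data, 143 of the 199 higher and 989 of the 1002 lower genes were still past the fold. That setting takes 1 of 79 Gli2EKO but 1 of 250 control cells, which lowers the Gli2EKO levels more, and it gave 146 higher and 1355 lower genes with a median of −0.19, so it favours lower genes by construction.

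Other genes at the ends of the range were spread over cells. Abi3bp, an extracellular matrix protein, rose from 33.3 to 151 CPM, a log2 ratio of 2.17 (1.86 to 2.49), and from 9.05% to 34.7% of members after thinning. Mfap2, a protein of elastic microfibrils, rose from 24.1 to 104 CPM and from 8.19% to 29.2% of members, and Bex1 from 19.5 to 78.7 CPM and from 6.03% to 22.2%. Within members without a Shh UMI the ratio of Abi3bp was −0.50. Dnajc6, which encodes auxilin, a factor that uncoats clathrin vesicles, rose from 15.3 to 73.2 CPM, and its ratio within members without Shh was −0.33, from few UMIs. Col14a1, a collagen that sits on fibrils, fell from 115 to 15.9 CPM, a log2 ratio of −2.85 (−3.53 to −2.25), and from 22.4% to 5.56% of members. Immune cells held Mfap2 at 91.7 and 26.9 CPM and Col14a1 at 51.6 and 5.12 CPM in the control and Gli2EKO libraries. For genes of the dermis these cells need not show free RNA alone, and a difference in background was not tested.

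The long noncoding RNA Gm47283 (chrY:90796007-90833677, plus strand) fell in members from 146 to 13.8 CPM, a log2 ratio of −3.40 (−4.12 to −2.76), and from 39.2% to 6.94% of cells. It was lower in the Gli2EKO library in inner root sheath keratin cells (−2.89) and outer root sheath type cells (−2.73) too. Immune cells, which the rule keeps apart from keratinocytes, had it at 86.7 and 16.6 CPM. Genotype and the strain or animals of a library cannot be told apart here.

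**Figure D2:**
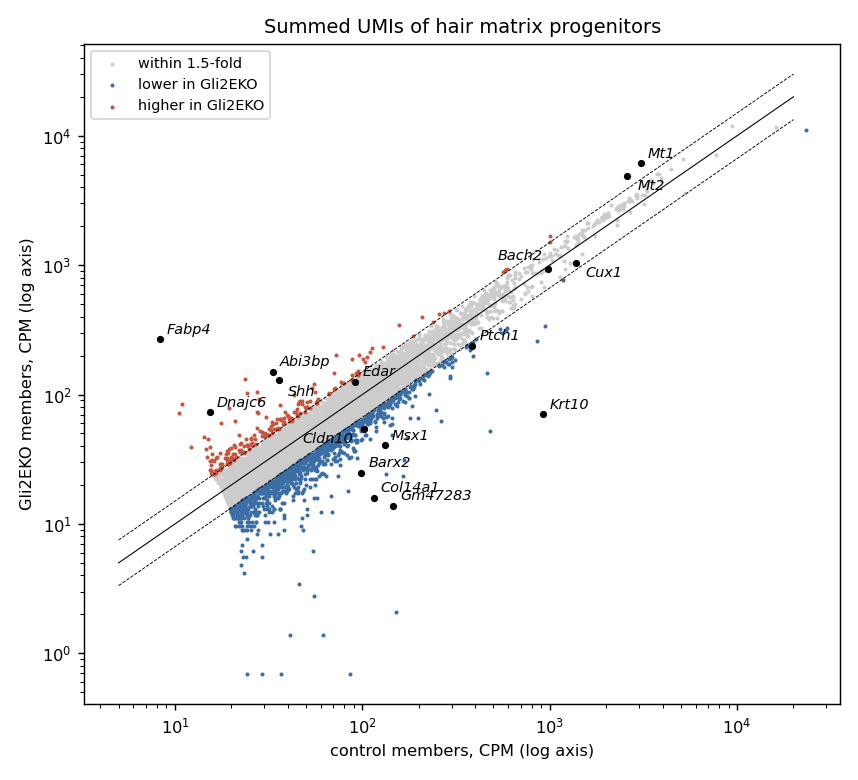
Level of each compared gene in the summed members of the control library (horizontal, CPM, log axis) and of the Gli2EKO library (vertical, CPM, log axis), with dashed lines at 1.5-fold and coloured points past it; of 7507 genes, 1 at 0 in a library is not drawn. Shh, Mt1 and Mt2 lie above the lines and Msx1, Cldn10, Barx2 and Gm47283 below them, and most of Fabp4 and Krt10 comes from 1 cell each.

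Hedgehog genes are given by role, and no difference between the lists was tested. Of 4 genes of the ligand and its release that were compared, 2 were higher in Gli2EKO members and 0 lower, with a median log2 ratio of 0.39 against −0.12 for all genes. Shh chose the members, and without it 1 of 3 was higher and the median was −0.16, so the list's median rests on it. Shh had a log2 ratio of 1.85 (1.53 to 2.17). Scube1, a secreted protein of the family that helps release Hedgehog ligands, went from 23.9 to 45.6 CPM, a log2 ratio of 0.93 (0.46 to 1.40), or 0.66 without its top cells. Within members with a Shh UMI Scube1 was not past 1.5-fold, and within members without one it was lower in the Gli2EKO library, from few UMIs. Of 7 genes of reception and transduction 0 were higher and 3 lower, with a median of −0.57, beside 2.65% higher and 13.3% lower among all genes. They were Gli2 itself, Gli3 (297 and 191 CPM, −0.63, −0.83 to −0.44), and the co-receptor gene Gas1 (43.8 and 17.3 CPM, −1.34, −2.01 to −0.74), while the signal transducer Smo had 143 and 128 CPM. In members with a Shh UMI, Gli2 was at −0.0339 and Gli3 at 0.0849, so neither was lower past 1.5-fold there. In members without one, Gli2 was at −1.13 (−1.60 to −0.70). Gas1 was lower in immune cells as well, at 51.6 and 8.97 CPM.

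Among target genes of the pathway, Ptch1 (chr13:63656142-63721412, minus strand) fell from 386 to 239 CPM, a log2 ratio of −0.69 (−0.87 to −0.53), and its median per cell from 3.02 to 1.53 UMIs per 10000. Gli1, a further target, was at 32.6 and 33.8 CPM, which gave a ratio of 0.05 (−0.45 to 0.54) with few UMIs, 134 and 49. Of the 6 targets compared, 1 was past the fold, Ptch1, beside 13.3% lower among all genes, and the cyclins Ccnd1 and Ccnd2 had log2 ratios of −0.23 and −0.02. Inner root sheath keratin cells gave lower ratios, −1.35 for Ptch1 and −1.58 for Gli1; the differences between the populations were not tested.

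**Figure D3:**
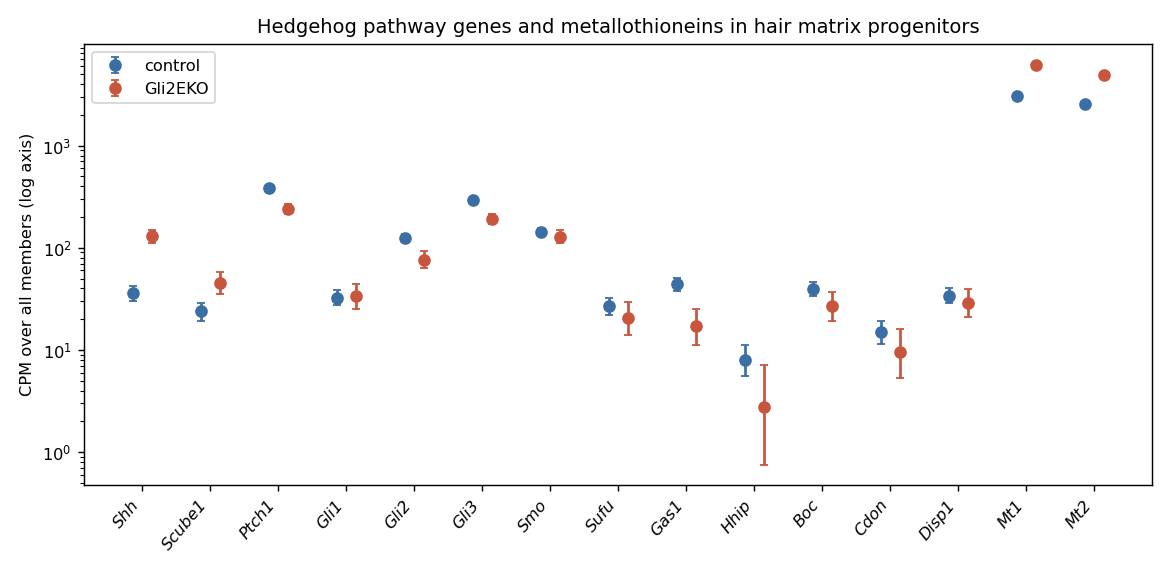
Levels (CPM, log axis) of Hedgehog pathway genes and metallothioneins summed over control members (blue) and Gli2EKO members (red), with exact Poisson 95% intervals. Shh, Scube1, Mt1 and Mt2 are higher in Gli2EKO members, Ptch1, Gli2, Gli3 and Gas1 lower, and the intervals of Gli1 and Smo overlap.

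Of 12 secreted signals of the matrix compared, 7 were higher in Gli2EKO members and 3 lower, with a median log2 ratio of 0.64, beside 2.65% higher and 13.3% lower among all genes. Without Shh, which chose the members, 6 of 11 were higher and 3 lower, with a median of 0.62; lists without such genes are an alternative chosen after seeing the data. Beside Shh these were Tgfb2, a growth factor, at 55.2 and 120 CPM (1.12, 0.83 to 1.41), Pdgfa, a ligand for fibroblasts, at 209 and 396 CPM (0.92, 0.77 to 1.08), Bmp2 at 52.3 and 89.1 CPM (0.77), Wnt10b (0.70), Pdgfb (0.67) and Wnt10a (0.62). Several of these turned or shrank with the choice of members. Bmp2 was at −0.0362 in members with Shh, at −0.25 with inner root sheath keratins under 1 and at −0.62 with the rule applied after thinning, and Wnt10b at −0.20 in members with Shh. In members without Shh, Pdgfa was at −0.18 and Tgfb2 at 0.0642. Lower were Slit3, a guidance protein, at 246 and 75.3 CPM (−1.71), Edn1, the peptide endothelin, at 56.2 and 26.2 CPM (−1.10), and Wnt5a at 162 and 104 CPM (−0.64). Slit3 was also lower in immune cells, at 194 and 11.5 CPM.

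Wnt pathway genes moved both ways. Of 23 compared, 5 were higher and 7 lower, with a median of −0.24, again beside 2.65% higher and 13.3% lower among all genes. Kremen2, a receptor for Wnt inhibitors, went from 27.3 to 73.9 CPM (1.44, 1.04 to 1.83), and Nkd1, a feedback inhibitor, from 15.3 to 30.4 CPM (0.99, 0.40 to 1.56), with Wnt6, Wnt10a and Wnt10b the others. Lower were the transcription factors Tcf7l1 (56.0 and 22.1 CPM, −1.34) and Tcf7l2 (188 and 114 CPM, −0.73), the receptors Lgr4 (−0.77) and Fzd6 (−0.67), Wnt5a, Wnt4 (−0.61) and Bambi (−0.62). The target Axin2 had 45.3 and 31.8 CPM (−0.51, −1.01 to −0.04). Wnt6 was at −0.44 in members without Shh. Sp5, another target, was under the minimum for comparison, with 12 UMIs in control and 53 in Gli2EKO members.

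In the Eda pathway, which acts through Edar and NF-kappaB, 1 of 8 genes was higher and 1 lower, with a median of 0.36, or 0.33 without Edar, which chose the members. Nfkb1 went from 92.5 to 147 CPM (0.67, 0.42 to 0.91) and the adaptor Traf6 from 34.3 to 16.6 CPM (−1.05). In the BMP pathway 1 of 17 was higher, Bmp2, and 4 lower, with a median of −0.25, or 1 and 3 of 15 without Msx1 and Msx2, which chose the members. Those lower beside Msx1 were Id4 (−1.16), the inhibitory Smad6 (39.7 and 20.02 CPM, −0.99) and the pseudoreceptor Bambi. Id3 was the most abundant of the list, at 330 and 289 CPM, and did not pass the fold. In the Notch pathway 0 of 9 were higher and 2 lower, with a median of −0.51: the ligand Jag1 (89.6 and 49.7 CPM, −0.85) and the coactivator Maml2 (−0.65).

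Counts of lower genes are to be read beside the 13.3% lower and 2.65% higher among all genes compared, here as for the Eda, BMP and Notch pathways; the difference from these shares was not tested. Of 28 transcription factors known from the matrix 1 was higher, Myc (18.5 and 32.4 CPM, 0.81), and 9 lower, with a median of −0.31. Barx2, a homeobox factor, fell from 98.8 to 24.9 CPM (−1.99) and Klf5 from 92.5 to 42.8 CPM (−1.11), and Dlx3, a homeobox factor of hair differentiation, from 160 to 101 CPM (−0.65). Hoxc13 had 93.7 and 110 CPM and Lhx2, a factor of follicle stem cells, 239 and 284 CPM. Of 16 adhesion genes 0 were higher and 8 lower, with a median of −0.58, or 7 of 15 without Cldn10, which chose the members. Among them were Nectin4 (37.97 and 11.7 CPM, −1.69), the integrin Itga3 (48.9 and 18.6 CPM, −1.39) and Col17a1, a collagen of the hemidesmosome (86.9 and 44.2 CPM, −0.98). The integrin Itgb4 had 66.7 and 67.7 CPM.

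Several markers of other keratinocytes were lower in Gli2EKO members by summed UMIs, although for some lists the share of cells with the markers was higher. The counts stand beside 13.3% lower and 2.65% higher among all genes. Of 6 inner root sheath markers 2 were lower and of 5 hair shaft markers 2, with sums of 530 and 409 CPM and of 850 and 638 CPM. These counts include genes of the rule, which limits the inner root sheath keratins, Krt25 among the lower ones, and used Msx2, without which 2 of 4 hair shaft markers were lower. Of 11 outer root sheath and stem cell markers 0 were higher and 6 lower, although the summed list was at 5387 and 5054 CPM, led by Krt14. Of 7 companion layer and upper follicle markers 4 were lower (median −1.52), and of 6 markers of the Foxq1 lineage, a differentiating follicle lineage, 5 were lower (median −1.11), with Foxq1 at 38.2 and 14.5 CPM. Of 9 epidermal markers 7 were lower, with the sum at 2730 and 677 CPM, led by Krt10. Without the 13 control and 4 Gli2EKO members that carried genes of another cell type, an alternative chosen after seeing the data, the epidermal sum was 755 and 658 CPM and the counts of genes past 1.5-fold 195 higher and 1001 lower. Without them the log2 ratios of Krt1 and Krt79 turned to 0.40 and 0.11. After thinning, at least 2 inner root sheath markers were found in 61.2% of control and 36.1% of Gli2EKO members and at least 2 Foxq1 lineage markers in 24.6% and 16.7%. At least 2 epidermal markers were found in 39.2% of control and 52.8% of Gli2EKO members, at least 2 companion layer markers in 31.9% and 37.5%, and at least 2 outer root sheath markers in 94.8% and 98.6%. Of immune cells, 19.0% and 14.3% held the epidermal, 20.2% and 8.93% the companion layer, 53.6% and 35.7% the outer root sheath, 2.38% and 0% the inner root sheath, and 0% and 0% the Foxq1 lineage markers. A Krt10 UMI was found in 33.6% and 31.9% of members after thinning, and in 21.4% and 28.6% of immune cells. The part of mixed droplets in these ratios beyond that was not tested.

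Among markers of cells outside the epithelium, those of fibroblasts had the largest sum. Fibroblast markers summed to 888 CPM in control and 1283 CPM in Gli2EKO members, led by Dcn at 763 and 964 CPM. Of 10 in the list 4 were compared, and 3 of these were higher, the collagens Col1a1, Col1a2 and Col3a1. Among all genes 2.65% were higher and 13.3% lower. Col1a1 and Col1a2 are genes of the rule, and without members that carry genes of another cell type the log2 ratios of the 3 collagens were −0.19, −0.31 and −0.12. In Col1a1, 75.7% of the Gli2EKO UMIs came from 1 cell, and the ratio without top cells was −0.07. At least 2 fibroblast markers were found in 36.2% of control and 37.5% of Gli2EKO members after thinning, against 26.2% and 12.5% of immune cells. For these markers the immune cells need not show free RNA alone. Immune markers summed to 44.0 and 20.02 CPM, led by Fcer1g, with 2 of 8 at 0 in Gli2EKO members. Melanocyte markers summed to 124 and 102.2 CPM, led by Dct, dermal papilla markers to 237 and 215 CPM, led by Wif1, and endothelial and mural markers to 390 and 474 CPM, led by Tagln, with 3 of 8 at 0 in control members. Schwann and muscle markers summed to 4.38 and 2.07 CPM and red cell genes to 20.9 and 17.9 CPM.

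Genes induced by dissociation were close between the libraries as a sum, at 3936 and 4273 CPM, led by Hsp90aa1. Of 16 compared, 2 were higher and 2 lower, which for lower genes is near the 13.3% of all genes. Hspa1b, a heat shock protein, went from 565 to 880 CPM (0.64, 0.54 to 0.74), but its log2 ratio was −0.53 in members with Shh, −0.30 with inner root sheath keratins under 1, and with the rule applied after thinning the Hspa1b log2 ratio Gli2EKO over control was −0.0135. Fos, an immediate early factor, went from 140 to 58.0 CPM (−1.28, −1.62 to −0.94).

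**Figure D4:**
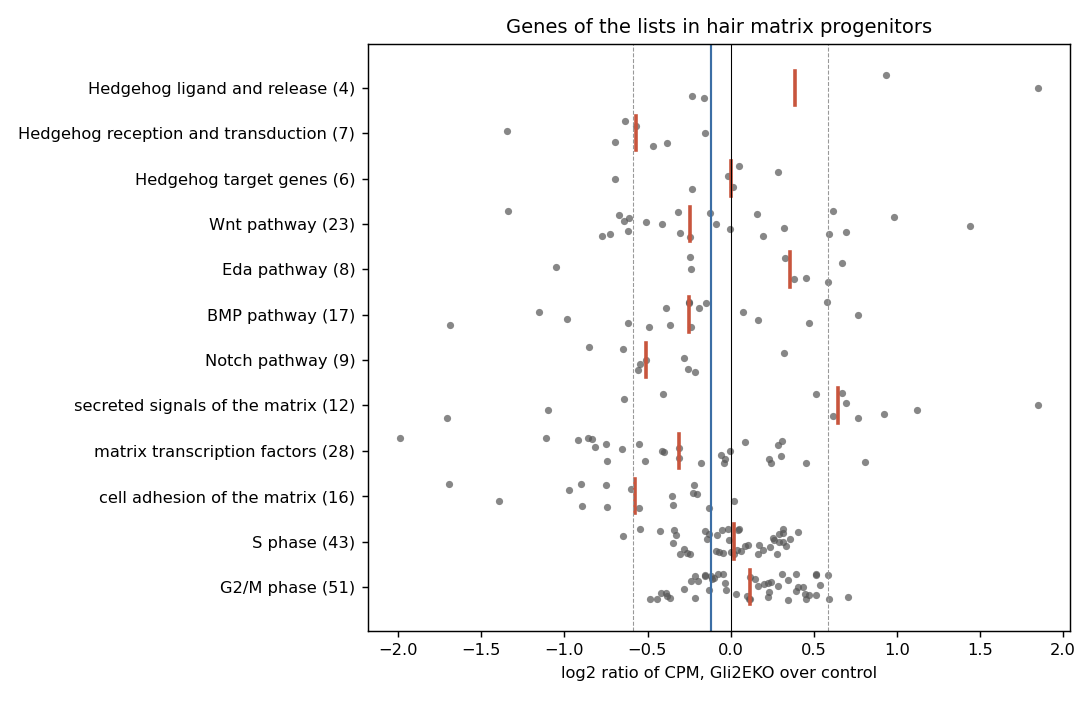
Log2 ratio of CPM, Gli2EKO over control, of each compared gene (grey points, genes of the rule included) in lists of pathway, transcription factor, adhesion and cell cycle genes, with the number of genes in parentheses, the list's median (red), the median of all genes at −0.12 (blue) and dashed lines at 1.5-fold. Secreted signals lie furthest to the right, at a median of 0.64, and adhesion and Hedgehog reception genes to the left, at −0.58 and −0.57.

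Shh divided the members into cells with unlike signals. Of 250 control members 52 held a Shh UMI (20.8%, 15.9 to 26.4), and of 79 Gli2EKO members 38 did (48.1%, 36.7 to 59.6). After thinning the shares were 11.6% (7.81 to 16.5) and 20.8% (12.2 to 32.0), whose intervals overlap, against 0.410% and 0.585% of outer root sheath type cells and 1.19% and 0% of immune cells. Thinned to 2000 UMIs the shares of members were 6% (3.40 to 9.70) and 19.0% (11.03 to 29.4), so they depend on the depth. These intervals cover counting error over cells of 1 library each, and the difference between genotypes was not tested. Shh was used to choose members. When cells were chosen by 2 of the other 5 markers, an alternative added after seeing the data, Shh stood at 30.3 and 106 CPM, a log2 ratio of 1.80 (1.44 to 2.17), and 17.2% and 36.9% of the cells held it. In inner root sheath keratin cells Shh was at 73.0 and 59.3 CPM.

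Cells with Shh held other secreted signals too. Of 5006 genes, 114 (2.28%) were higher and 69 (1.38%) lower in members with a Shh UMI past 1.5-fold in both libraries. Ranked by the smaller of the library ratios, Scube1 came first, with log2 ratios of 3.80 in the control and 4.65 in the Gli2EKO library, and then Wnt10b, at 3.67 and 3.49. 9530036O11Rik followed at 3.41 and 3.26, the matrix protein Frem1 at 2.90 and 5.88, Bmp2 at 2.98 and 2.71, Kremen2 at 2.34 and 3.12, and Wif1, a secreted Wnt inhibitor, at 2.13 and 2.26. Of the lists, 5 of 9 secreted signals and 5 of 17 Wnt pathway genes were higher with Shh. The receptor Edar was also higher, at 1.40 and 2.09, and so was Bach2, at 1.21 and 2.11. Members with Shh were shallower, with medians of 13406.5 against 16241.5 UMIs in the control library and 15887 against 20012 in the Gli2EKO library; the part of depth was not tested.

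Fewer genes were lower than higher in members with a Shh UMI, 69 against 114, but this order turned in other settings. With at least 2 Shh UMIs 146 genes were higher and 151 lower, and after thinning 150 and 170. Of 13 BMP pathway genes 3 were higher and 3 lower with Shh. Msx1, a gene of the rule, is among those lower, and asking for 2 of 6 markers shapes its direction. Of 3 Foxq1 lineage markers 2 were lower. Lower with Shh were also 0 of 4 inner root sheath, 0 of 3 hair shaft and 1 of 7 outer root sheath markers. For companion layer markers it was 1 of 4 and for epidermal markers 1 of 6. All these counts stand beside 2.28% higher and 1.38% lower among all genes, and the difference from these shares was not tested. Gpnmb, a glycoprotein of the Foxq1 lineage list, was lower with Shh at log2 ratios of −3.83 and −1.91, and Aldh1a3, which makes retinoic acid, at −2.84 and −1.47. Slit3 was lower at −1.91 and −2.62, and the BMP targets Id3 and Id1 at −0.92 and −1.45 and at −0.78 and −1.18. Msx1 was lower at −1.21 and −1.86. Both Shh and Msx1 were found in 23 control and 6 Gli2EKO members, Shh without Msx1 in 29 and 32, Msx1 without Shh in 145 and 24, and neither in 53 and 17, although asking for 2 of 6 markers shapes these numbers.

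Genes higher in members with Shh were more often higher than lower in Gli2EKO members. The share of members with a Shh UMI was also larger there, although not their number, and its part was not tested. Among all genes 2.65% were higher and 13.3% lower in Gli2EKO members, with a median of −0.12. Of the 114 genes higher with Shh 39 were higher and 7 lower in Gli2EKO members, with a median of 0.29. Of the 69 genes lower with Shh 1 was higher and 23 lower, with a median of −0.39. These groups use the same cells as the genotype comparison, so the counts are not independent of it. Within members that held Shh, the median of the 114 genes was 0.17, with Bmp2 at −0.04, Wnt10b at −0.20 and Shh itself at 0.72. Within members without it the median was −0.41. For the 69 genes lower with Shh the medians were −0.36 within members with Shh and −0.01 within members without. All genes compared in those members had medians of 0.013 with Shh and −0.15 without. Taking members by Shh, chosen after seeing the data, changed the counts of genes past 1.5-fold to 174 higher and 298 lower of 3053 with Shh, and 195 higher and 1246 lower of 6454 without. Mt1 was higher in Gli2EKO members in both, by log2 ratios of 0.43 with Shh and 1.38 without.

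**Figure D5:**
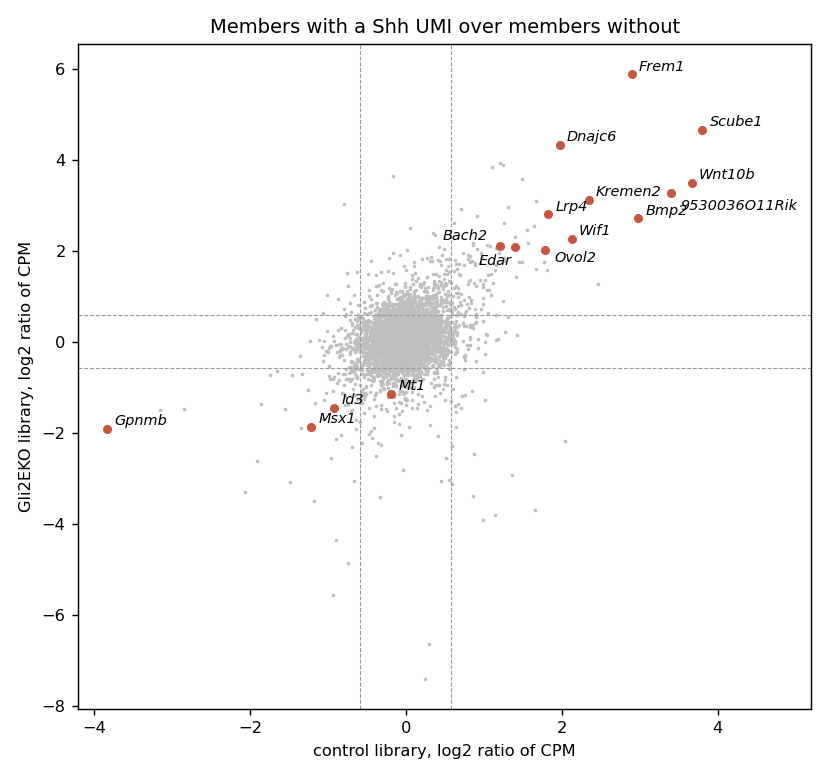
Log2 ratio of CPM in members with over members without a Shh UMI, in the control library (horizontal) and the Gli2EKO library (vertical), for genes with at least 50 UMIs in the members of each library, with dashed lines at 1.5-fold. Scube1, Wnt10b, Bmp2 and Kremen2 lie in the upper right and Gpnmb, Msx1 and Id3 in the lower left, and Shh itself is left out.

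Matrix progenitors of both genotypes were mostly in cycle by this measure. After thinning, 78.4% (72.6 to 83.6) of control and 77.8% (66.4 to 86.7) of Gli2EKO members held at least 2 of Mki67, Top2a, Cdk1, Ube2c and Cenpf, genes of dividing cells. The unthinned shares were 88.8% and 92.4%. In outer root sheath type cells the thinned shares were 42.4% and 46.3%, in inner root sheath keratin cells 79.2% and 63.2%, and in immune cells 51.2% and 46.4%. The thinned shares of members were close, but their intervals cover counting error over cells only. The difference between the genotypes was not tested.

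The cell cycle lists were close as sums. Genes of S phase summed to 5179 CPM in control and 5344 CPM in Gli2EKO members, and of 43 compared 0 were higher and 1 lower. Genes of G2/M phase summed to 10141 and 11263 CPM, and of 51 compared 3 were higher and 0 lower, beside 2.65% higher and 13.3% lower among all genes. The higher genes were Ube2c (256 and 418 CPM, 0.71, 0.56 to 0.85), Cdc20 (94.2 and 142 CPM, 0.59) and Aurka (35.8 and 53.9 CPM, 0.59), all of which act in mitosis. With the rule applied after thinning the Cdc20 log2 ratio Gli2EKO over control was −0.0135, and Aurka was at −0.30 in members with Shh. The medians of the lists were 0.02 and 0.12, against −0.12 for all genes. In members with a Shh UMI 0 of 39 S phase and 1 of 49 G2/M genes were higher and 0 lower in both libraries. These counts are close to the 2.28% higher and 1.38% lower among all genes.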

How the data were processed

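The counts of UMIs were deposited by the authors, who made them with Cell Ranger 9.0.1 on GRCm39, and were used without further normalization. Python 3.11.15 with numpy 2.4.6, scipy 1.17.1, pandas 2.3.3, scanpy 1.11.5 and matplotlib 3.10.9 did the rest. Cells with over 1000 and under 8000 genes and under 15% mitochondrial UMIs were kept. No doublets were removed; leaving out the 8% of cells with the highest Scrublet score was an alternative, and the study's own doublet caller was not applied here. UMIs were summed over members. Genes named are those of lists on pathways, markers and cell states, the 15 highest and 15 lowest genotype ratios among genes with at least 10 UMIs in each library, the 20 leading genes over other keratinocytes and the 10 highest with Shh. Members and lists were chosen with earlier results on these data known. Thinning was random with seed 1. Ratios, counting intervals and thinning were tested on simulated counts. The simulated sums held no variation between cells, and the choice of members was not simulated.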

Additional observations from a re-analysis of the deposited data

Results flagged for a closer look

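Some genes past 1.5-fold between genotypes in matrix progenitors went the opposite way in another population. These differences were not tested, and some of the directions in members turn with the choice of cells, as given below.

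In inner root sheath keratin cells, genes higher in Gli2EKO members were lower. The log2 ratios of Gli2EKO over control in those cells were −0.93 for Wnt6, −0.77 for Bmp2, −1.39 for Wnt10b, −0.62 for Kremen2, −0.77 for Aurka, −0.72 for Ier3 and −0.78 for 1600010M07Rik. Genes lower in Gli2EKO members were higher there. The log2 ratios were 1.36 for Postn, 1.80 for S100a3, 1.43 for Sbsn, 1.97 for Krtdap, 1.14 for Barx2, 1.39 for Krt25, 2.32 for Krt10, 1.00 for Calm4, 1.02 for Gas1, 0.66 for Klf5, 2.28 for Ly6d, 1.08 for Krt75, 2.76 for Krt1, 2.45 for Krt79, 0.61 for Cldn1 and 0.95 for Dsg1a. Krt25 is a gene of the rule, which limits it in members and chooses the inner root sheath keratin cells by it, so its directions rest on the selection. In members the log2 ratios of Krt1 and Krt79 were 0.40 and 0.11 without members that carry genes of another cell type, and 77.1% of the control Krt1 UMIs came from 1 cell. The summed epidermal markers, led by Krt10, stood at 2730 CPM in control and 677 CPM in Gli2EKO members. Without these mixed members they stood at 755 and 658 CPM. Ier3 was at −0.62 in members without top cells, and Bmp2 and Wnt10b were at −0.0362 and −0.20 in members with Shh. Aurka was at −0.30 in members with Shh and Wnt6 at −0.44 in members without it.

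In outer root sheath type cells the log2 ratios were −0.74 for Tgfb2, −1.43 for Fabp4, −0.80 for Mme, −0.92 for Frem1 and −0.97 for Abi3bp, which were higher in Gli2EKO members, and 1.36 for Krtdap, which was lower. In members Fabp4 was at −0.28 without top cells, with 97.7% of its Gli2EKO UMIs in 1 cell. In members without a Shh UMI Abi3bp was at −0.50, Mme at −1.54, Frem1 at −2.42 and Tgfb2 at 0.0642. With Cux1 at 2 per 10000 or more, Krtdap was at 0.26 in members.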

How the results depend on the processing

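No paired analysis was possible because each genotype has 1 library and both are replicate 1, so the results come from no test. Genotype, library and animals cannot be told apart. Where values moved or changed sign the cause was not tested, except that minimum counts, folds and smaller sets of cells change numbers of genes by construction.

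Members were 4.38% of control cells with Cux1 at 5 per 10000 or more. With at least 3 markers they were 3.22% of control and 1.46% of Gli2EKO cells. With inner root sheath keratins under 1 they were 1.47% and 0.892%, a ratio of 0.609, and 368 genes were lower. With the rule applied after thinning they were 2.94% and 1.08%, and 635 genes were lower.

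Between genotypes, scaling by the median ratio gave 411 higher and 633 lower genes, and the mean over cells gave 342 higher. A minimum of 30 UMIs gave 508 higher and 1834 lower, 300 UMIs gave 62 and 394, and no minimum gave 3582 and 4470. Members with a Shh UMI gave 298 lower.

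Past 1.5-fold, 330 genes were higher and 200 lower than in inner root sheath keratin cells and 800 higher and 1517 lower than in outer root sheath type cells. With at least 20 UMIs 142 were higher than in inner root sheath keratin cells.

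At least 2 Shh UMIs were found in 10% of control and 31.6% of Gli2EKO members, with 146 genes higher and 151 lower. After thinning Shh was found in 11.6% and 20.8%, with 150 genes higher and 170 lower. At least 1 cycling gene was found in 93.1% and 90.3%. Thinned to 2000 UMIs the cycling share was 61.2% in control and 64.6% in Gli2EKO members.

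Without members that carry genes of another cell type, control sums were 755 CPM for epidermal, 5.16 for immune, 591 for companion layer, 5277 for outer root sheath and 70.0 for melanocyte markers. Gli2EKO sums were 1113 CPM for fibroblast, 154 for dermal papilla and 41.1 for melanocyte markers. Log2 ratios changed sign for Col3a1 (−0.12), Col1a2 (−0.31), Col1a1 (−0.19), Krt1 (0.40) and Krt79 (0.11).

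In members without a Shh UMI the sign changed for Wnt6 (−0.44), Lrp4 (−0.23), Pdgfa (−0.18), Mtmr7 (−0.14) and Abi3bp (−0.50), and also, under the minimum there, for Mme (−1.54), Frem1 (−2.42) and Dnajc6 (−0.33), and in members with Shh for Bmp2 (−0.0362), Gli3 (0.0849), Wnt10b (−0.20) and Hspa1b (−0.53), and under the minimum for Aurka (−0.30). Without a Shh UMI the sign also changed for Scube1, under the minimum, and by little for Wnt10b. With inner root sheath keratins under 1 it changed for Bmp2 (−0.25) and Hspa1b (−0.30), and with the rule after thinning for Bmp2 (−0.62). In that setting the Cdc20 log2 ratio Gli2EKO over control was −0.0135 and the Hspa1b log2 ratio Gli2EKO over control was −0.0135, also changes of sign.

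Without the top cell it changed for Fabp4 (−0.28), Col1a1 (−0.0677) and Ier3 (−0.62), and without high Scrublet scores for Col1a1 (−0.12) and Ier3 (−1.02). With Cux1 at 2 or more it changed for Krtdap (0.26) and Krt79 (0.79), with at least 3 markers for Krt79 (1.57), and by the mean over cells for Aldh1a3 (0.30). The alternatives on Shh, on mixed members and on top cells were chosen after seeing the data.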
